A study of Mus musculus with 6 samples.

Results

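Alkbh5, an RNA demethylase gene inside the chromosome 11 segment that is duplicated in Dp(11)17/+ mice, was examined together with the genes that write, read and erase the same RNA mark elsewhere in the genome. The members were named as 9 genes, Alkbh5, Fto, Mettl3, Mettl14, Wtap, Ythdf1, Ythdf2, Ythdf3 and Ythdc1, and every probe set annotated to exactly one of them was taken. This gave 16 of the 45037 probe sets other than controls, for 8 of the 9 genes. Ythdf2 matched no probe set in the annotation used and is not analysed here. Each gene is represented by the probe set whose mean over the 6 arrays was highest, called the brightest, and its other probe sets are given beside it.

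Hippocampal RNA of each mouse was hybridised to its own 1-colour Affymetrix array. The duplication mice were 3 Dp(11)17/+ animals, in which one chromosome 11 holds the segment in an extra copy, and the wild-type mice were 3 +/+ animals. Every mouse was labelled as a male of 11 to 14 weeks in the C57BL/6-Tyr c-Brd background, and the series title ties the line to Potocki-Lupski syndrome, a developmental disorder of humans. The labels assign each array to 1 individual, although the labelling protocol mentions pools and the extraction protocol lists organs other than hippocampus. Values are RMA values on the log2 scale, so a difference of 1 is a doubling of signal. The small number of arrays, 3 per genotype, sets the limit of precision.

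The mark, m6A, is a methyl group on adenosines inside messenger RNA. A writer complex around the catalytic protein Mettl3, its partner Mettl14 and the adaptor Wtap adds it, and the dioxygenases Fto and Alkbh5 of the AlkB family can remove it. Proteins with a YTH domain read it, Ythdc1 in the nucleus and the Ythdf proteins in the cytoplasm, and affect the splicing, translation and decay of the marked RNA. The mark is abundant in brain, and loss of its writers or readers in mouse hippocampus is known to impair learning.

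Some arrays stood apart from their labels. In duplication replicate 1 the log2 value of Xist, the RNA of the inactive X chromosome of females, was 9.13, against 3.06 to 3.69 in the other 5 mice, and the Y-linked Eif2s3y was at 2.48, against 5.41 to 6.01. Duplication replicates 1, 2 and 3 had mean log2 values of 7.16, 5.64 and 7.98 over 8 striatal markers, against 5.56 to 6.37 in wild-type mice. Over 8 markers of thalamus and habenula they had 5.14, 4.76 and 7.11, against 4.70 to 5.26. The mean over 5 markers of CA1 pyramidal cells, the defining neurons of hippocampal field CA1, was 7.46, 8.68 and 6.60, against 8.15 to 8.33, and that over 6 dentate granule cell markers was 5.77, 7.55 and 4.88, against 6.50 to 6.91. Hippocampal markers were thus measured on every array and were lowest in duplication replicates 3 and 1. Of the glial lists, all 5 oligodendrocyte and all 5 microglial markers had a higher group mean in duplication mice, beside 7588 of all 18193 genes. Their median log2 fold changes were 0.23 and 0.24. Oligodendrocyte marker means were 9.42, 9.71 and 10.07 in duplication replicates 1, 2 and 3, against 9.25 to 9.84 in wild-type mice. Only duplication replicate 3 lay above the wild-type range. Microglial marker means were 7.59, 7.31 and 7.25, against 6.99 to 7.34, with only duplication replicate 1 above that range. Of 5 astrocyte markers, 4 were higher, with a median of 0.06. In bulk tissue, fewer cells of a type and less RNA per cell cannot be told apart.

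Alkbh5 was higher in the duplication mice. Its brightest probe set, 1434701_at, had log2 values of 8.66, 8.66 and 8.64 in duplication replicates 1, 2 and 3, against 8.10, 7.77 and 7.82 in wild-type replicates 1, 2 and 3. The groups did not overlap, and the lowest duplication mouse lay above the highest wild-type mouse, wild-type replicate 1. The means were 8.65 ± 0.01 in duplication mice and 7.90 ± 0.18 in wild-type mice (SD, n = 3 each), a log2 fold change of 0.76 (SE 0.10) or 1.69-fold, with a 95% interval of 1.43-fold to 2.01-fold. The ratio of gene copies, 3 to 2, is 1.5-fold, or 0.58 on the log2 scale, and lies inside this interval. The unadjusted limma p was 0.000152. Adjusted over all probe sets with Benjamini-Hochberg the limma p was 0.994, and 0 of 45037 probe sets, 0.0%, passed at 0.05. The exact permutation test, two-sided over 20 possible labelings, gave p = 0.1, the smallest that this design allows.

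The second probe set of Alkbh5, 1437728_at, differed by a like amount with a wider spread. It had log2 values of 7.01, 6.41 and 6.71 in duplication replicates 1, 2 and 3, against 6.31, 6.11 and 5.55 in wild-type mice in the same order. Here too the groups did not overlap, although duplication replicate 2 exceeded wild-type replicate 1 by little. The log2 fold change was 0.72 (SE 0.23), with a 95% interval of 0.19 to 1.26 and an adjusted limma p of 0.994. Its unadjusted limma p was 0.0148, and it was 0.0540, with a log2 fold change of 0.57, without duplication replicate 1. The smallest log2 fold change with 1 mouse left out was 0.50, without wild-type replicate 3, the lowest array (unadjusted limma p 0.0351). Over the 6 arrays the probe sets correlated at r = 0.83, a description only, since the arrays form separate clusters by genotype. Among all probe sets, 1.44% were higher with an unadjusted p under 0.05 and 3.41% had groups that did not overlap, with the duplication mice higher. Of the 16 member probe sets, 2 met each of these rules, both of Alkbh5.

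The brightest probe set of Alkbh5 stayed within 8.64 to 8.66 on the duplication arrays, whose CA1 marker means ranged from 6.60 to 8.68. The second one varied more on the same arrays (SD 0.30), highest in duplication replicate 1 and lowest in duplication replicate 2. The part of tissue composition in either was not tested. At the brightest probe set, leaving out duplication replicate 1, whose sex-linked genes went against its label, the log2 fold change was 0.75, and without duplication replicate 3 it was 0.76. With duplication replicate 2 alone set against the wild-type mice it was also 0.76, given as an effect size without a test. The spread of Alkbh5 was larger among wild-type mice, and without wild-type replicate 1 the log2 fold change was 0.86.

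**Figure D1:**
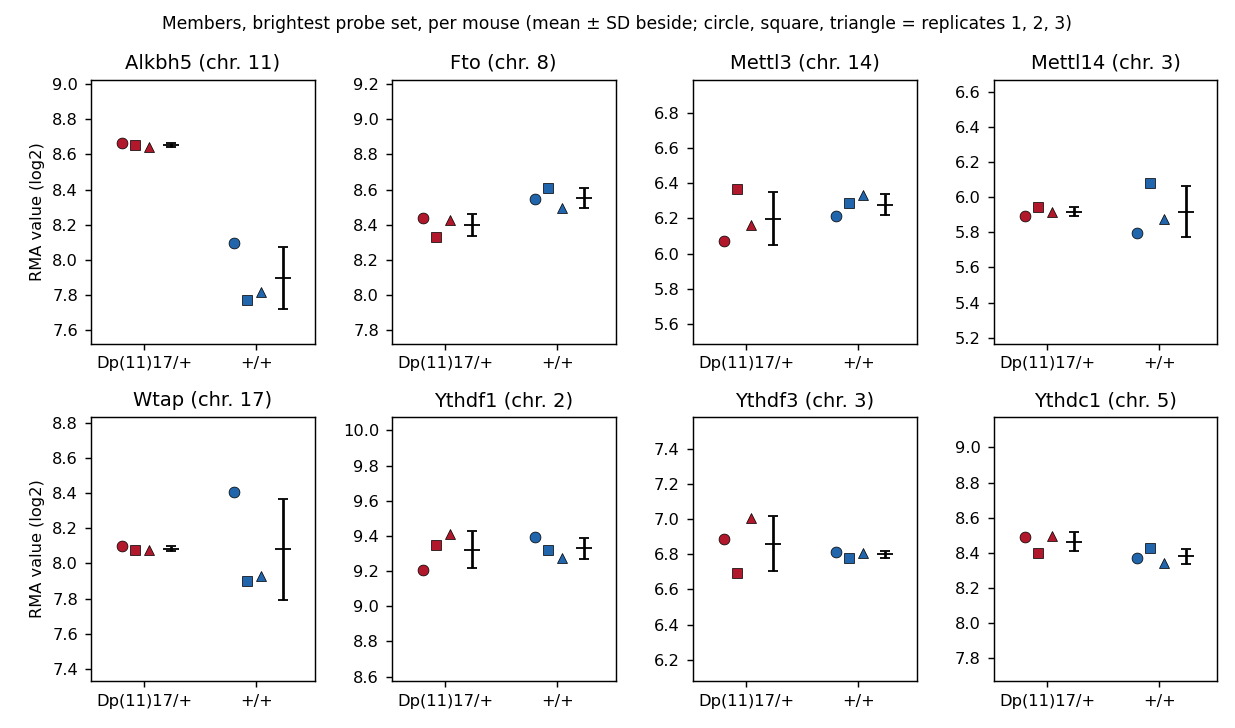
RMA values (log2 scale, vertical axis, the same span in each panel) of the brightest probe set of the 8 measured members in each mouse, with Dp(11)17/+ mice left and +/+ mice right; symbols mark replicates and bars beside them the mean ± SD. Alkbh5 lies at 8.64 to 8.66 in Dp(11)17/+ mice, against 7.77 to 8.10 in +/+ mice, Fto is lower in all 3 Dp(11)17/+ mice, and the other members overlap.

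Fto, the eraser outside the segment, on chromosome 8, had log2 values of 8.44, 8.33 and 8.42 in duplication replicates 1, 2 and 3, against 8.55, 8.61 and 8.50 in wild-type mice. The groups did not overlap, with the duplication mice lower, but the gap was small. The log2 fold change was -0.15 (SE 0.08, 95% interval -0.34 to 0.03), with an unadjusted limma p of 0.0959, and it did not pass. Its dim second probe set, 1430829_s_at, gave the opposite sign, 0.07 (SE 0.14), with overlapping groups. Among the 14 probe sets of unlinked members, 1 had groups apart with the duplication mice lower, against 4.61% of all probe sets, and by gene this was 1 of 7, against 5.59% of all genes. With 1 case, the count is too small to be set apart from these backgrounds.

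The promoters of both erasers are printed to set the start of Alkbh5, inside the duplicated segment, beside that of Fto, outside it. They run from 250 bases before to 50 bases after the annotated start, were taken from RefSeq on GRCm38.p6, and are written 5′ to 3′ on the gene's strand with each GC box, GGGCGG or its reverse complement CCGCCC, in capitals.
Alkbh5, chr11:60537433-60537732, + strand: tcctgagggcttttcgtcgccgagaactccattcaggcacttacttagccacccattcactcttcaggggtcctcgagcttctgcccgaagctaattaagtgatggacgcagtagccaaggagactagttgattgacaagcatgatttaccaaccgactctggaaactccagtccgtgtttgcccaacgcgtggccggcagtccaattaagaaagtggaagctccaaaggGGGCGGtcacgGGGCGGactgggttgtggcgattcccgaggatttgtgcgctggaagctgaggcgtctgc
Fto, chr8:91313275-91313574, + strand: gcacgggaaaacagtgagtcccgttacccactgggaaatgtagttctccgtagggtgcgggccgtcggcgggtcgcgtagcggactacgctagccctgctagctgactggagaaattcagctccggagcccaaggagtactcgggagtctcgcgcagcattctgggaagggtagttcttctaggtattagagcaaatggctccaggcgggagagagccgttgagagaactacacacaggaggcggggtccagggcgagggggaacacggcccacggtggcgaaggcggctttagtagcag
The Alkbh5 promoter held 2 GC boxes and 18 CpG dinucleotides, and that of Fto held 0 GC boxes and 23 CpG dinucleotides. A GC box on either strand was found in 35.7% of the 32851 promoters of the table, and the median promoter held 7 CpG dinucleotides. Promoters were listed for 7 of the 9 members, with 9 entries because Wtap had 3, and not for Mettl14 and Ythdf3. These 9 held 17 to 48 CpG dinucleotides, 7 of them a GC box and 0 of them the TATA box TATAAA or its reverse complement TTTATA, which 13.6% of all promoters held. The 3 Wtap entries overlap one another in position and each held a GC box, so the 9 entries are not independent. The motifs do not overlap one another in their letters, and a match is a description of the sequence alone.

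None of the writer genes passed the test, and in each the groups overlapped. Mettl3, the catalytic subunit, on chromosome 14, had log2 values of 6.07, 6.37 and 6.16 in duplication replicates 1, 2 and 3, against 6.22, 6.29 and 6.33 in wild-type mice. Duplication replicate 2 had the highest value of all and duplication replicate 1 the lowest, and the log2 fold change was -0.08 (SE 0.10). Mettl14, its partner, on chromosome 3, had values of 5.89, 5.94 and 5.92 in duplication mice, against 5.80, 6.08 and 5.87 in wild-type mice. All 3 duplication mice lay inside the wild-type range, with a log2 fold change of 0.00 (SE 0.09). Wtap, the adaptor, on chromosome 17, had values of 8.10, 8.07 and 8.08 at its brightest probe set in duplication mice, against 8.41, 7.90 and 7.93 in wild-type mice. Again the duplication mice lay inside the wild-type range, and the log2 fold change was 0.00 (SE 0.14).

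The 2 probe sets of Wtap ran against each other across the arrays. At the second, 1454805_at, the duplication mice had log2 values of 7.66, 7.63 and 7.66, against 7.57, 7.92 and 7.79 in wild-type mice. Wild-type replicate 1 was the highest array at the first probe set and the lowest at the second, and the correlation over the 6 arrays was r = -0.84, given as a description. The second probe set gave a log2 fold change of -0.11 (SE 0.10). The same array had the highest mean over 5 choroid plexus markers, which was 7.10, 5.19 and 7.31 in duplication replicates 1, 2 and 3, against 8.22, 4.71 and 5.02 in wild-type mice. Their part in the Wtap values was not tested. Without wild-type replicate 1 the log2 fold change of the first probe set was 0.17.

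None of the measured readers passed either, and their groups overlapped. Ythdf1, a reader linked to translation, on chromosome 2, had log2 values of 9.21, 9.35 and 9.41 at its brightest probe set in duplication replicates 1, 2 and 3, against 9.39, 9.32 and 9.28 in wild-type mice. The ranges overlapped, with a log2 fold change of -0.01 (SE 0.09). The other probe sets of Ythdf1 gave -0.06 and -0.02. Ythdf3, a cytoplasmic reader on chromosome 3, had values of 6.88, 6.69 and 7.01 in duplication mice, against 6.81, 6.78 and 6.81 in wild-type mice. Its duplication mice spread to both sides of the wild-type mice, with a log2 fold change of 0.06 (SE 0.10) and values of 0.05 and 0.03 at the other probe sets. Ythdc1, the nuclear reader, on chromosome 5, had values of 8.49, 8.40 and 8.50 in duplication mice, against 8.37, 8.43 and 8.34 in wild-type mice. Duplication replicate 2 lay below wild-type replicate 2, so the groups overlapped. Its log2 fold change was 0.08 (SE 0.08), and its second probe set gave 0.01.

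Across the 14 probe sets of the 7 unlinked genes the log2 fold changes ranged from -0.15 to 0.08, with a median of 0.00, beside a median of -0.01 over all probe sets. Of the 14, 8 were higher and 6 lower, and limma gave 0 of them an unadjusted p under 0.05 in either direction, beside 1.44% of all probe sets that were higher and 1.39% that were lower at that threshold. Their 95% intervals come from a fit without terms for sex or tissue composition, and bound only the difference between these groups of arrays. The highest upper bound was 0.41, below the log2 value of 1.5-fold, 0.58, at every one of the 14 probe sets, and the lowest lower bound was -0.36. Over all probe sets, 8.88% had an interval that reached 0.58 or lay above it, and both probe sets of Alkbh5 were among these. Upper bounds below 0.58 were thus common on these arrays and are not a result about the unlinked members.

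**Figure D2:**
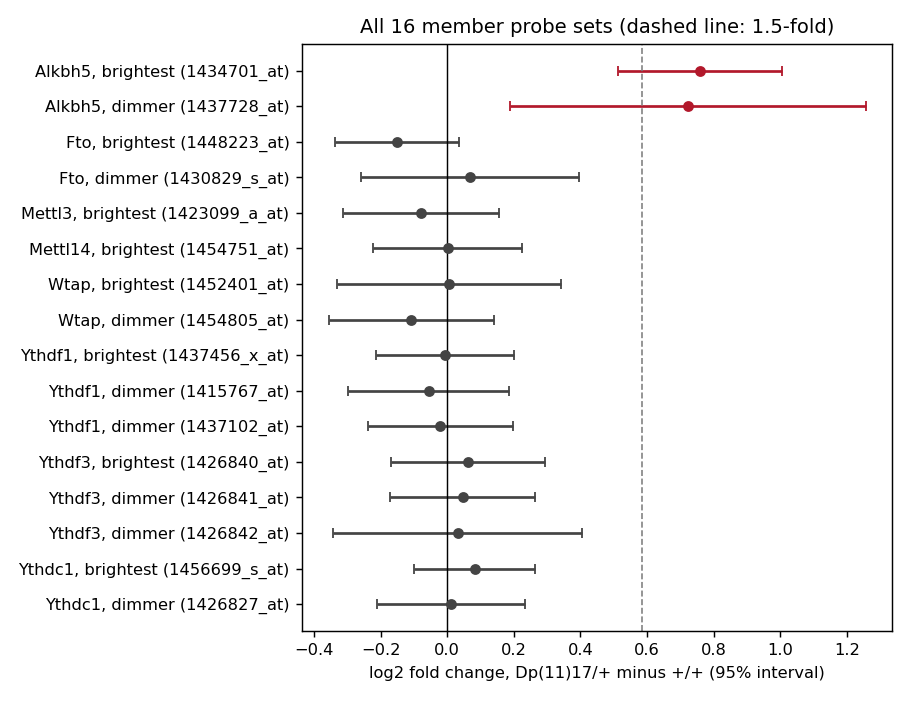
Log2 fold changes (Dp(11)17/+ minus +/+, horizontal axis) of all 16 member probe sets with 95% intervals from limma; the solid line marks no difference and the dashed line 1.5-fold, 0.58. Both probe sets of Alkbh5, at 0.76 and 0.72, lie to the right of 0, and the upper bounds of the other 14 end at 0.41 or below.

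The difference between Alkbh5 and the unlinked members was tested itself. Within each mouse the log2 value of each unlinked gene was subtracted from that of Alkbh5, and the genotypes were compared in this difference. Against Fto, the Alkbh5 difference stood at 0.88, 0.98 and 0.87 in duplication replicates 1, 2 and 3 relative to the wild-type mean, against 0.20, -0.18 and -0.02 in wild-type mice. Against the nuclear reader Ythdc1 it stood at 0.66, 0.74 and 0.63 in duplication mice, against 0.21, -0.17 and -0.04 in wild-type mice. For all 7 genes the lowest duplication mouse exceeded the highest wild-type mouse, and the change ranged from 0.68 against Ythdc1 to 0.91 against Fto. Each of the 7 exact two-sided permutation tests gave p = 0.1, also after Benjamini-Hochberg adjustment over the 7, which is the smallest value possible here. The 7 differences share the values of Alkbh5 and are therefore not independent of each other. Alkbh5 alone already had its groups apart, with a lowest duplication value of 8.64 and a highest wild-type value of 8.10. Subtracting a gene that differs little between mice leaves them apart. The count of 7 thus restates the Alkbh5 difference and is not a result about the unlinked genes. The share of all other genes that would leave the groups apart was not computed. With 1 mouse left out at a time the 7 differences ranged from 0.59 to 1.01.

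**Figure D3:**
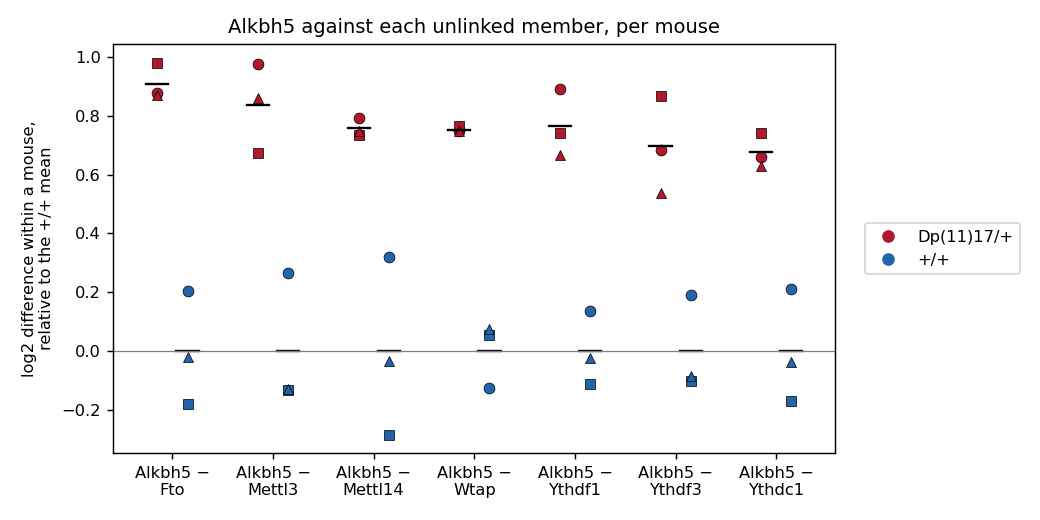
Difference between Alkbh5 and each of the 7 measured unlinked members within a mouse (log2 scale, vertical axis, set to 0 at the +/+ mean), with Dp(11)17/+ mice left and +/+ mice right of each tick; symbols mark replicates as in the plot of member values and short bars are group means. The Dp(11)17/+ means lie between 0.68 and 0.91 and no Dp(11)17/+ mouse overlaps a +/+ mouse.

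Inside the segment, genes on both sides of Alkbh5 were higher as well. The segment, from Cops3 to Rnf112 in the gene table, held 33 measured genes, 20 of them with a mean of at least 6 on the log2 scale. Of the 3 measured genes before Alkbh5, Gid4, a subunit of a ubiquitin ligase, differed by 0.49 on the log2 scale (SE 0.09) and Drg2, a GTP-binding protein, by 0.57 (SE 0.11). Myo15, a myosin of the inner ear, was dim, with a mean log2 value of 3.54, and had -0.06 (SE 0.11). After Alkbh5, Llgl1, a cell polarity gene, had 0.71 (SE 0.13), Flii, an actin remodelling gene, 0.52 (SE 0.14) and Mief2, a mitochondrial fission factor, 0.46 (SE 0.13).

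Alkbh5 lay 0.77, 0.76 and 0.75 above its wild-type mean in duplication replicates 1, 2 and 3, and the mean of the 19 other segment genes at or above a log2 value of 6 lay 0.36, 0.47 and 0.47 above its own. Relative to these 19 genes, Alkbh5 stood at 0.41, 0.30 and 0.27 in duplication mice, against 0.21, -0.11 and -0.10 in wild-type mice. The duplication mice lay above the wild-type mice in this measure too, by 0.33 on average, but duplication replicate 3 and wild-type replicate 1 were close. The exact permutation test gave p = 0.1, again the smallest possible. Alkbh5 had the largest log2 fold change of the 33 measured segment genes, so its place above the mean of the others followed from that rank. The 19 others included Cops3, with -0.17 (SE 0.08) and every duplication mouse below every wild-type mouse. They also included Rasd1, with 0.35 (SE 0.38), and Rnf112, with 0.23 (SE 0.22), both with overlapping groups. The 95% interval of Alkbh5, whose lower bound was 0.51, overlapped those of its bright neighbours, such as Llgl1, with a lower bound of 0.41, and Drg2, with an upper bound of 0.84.

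**Figure D4:**
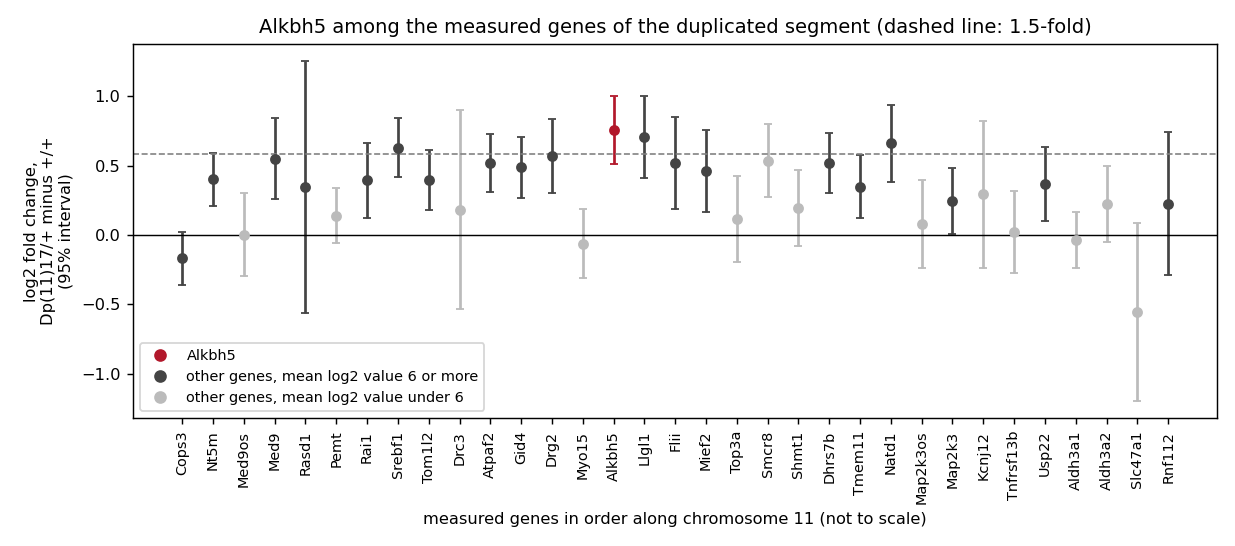
Log2 fold changes (Dp(11)17/+ minus +/+, vertical axis) with 95% intervals from limma for the 33 measured genes of the duplicated segment in their order on chromosome 11; the dashed line marks 1.5-fold, 0.58, and grey points are genes with a mean log2 value under 6. Alkbh5, at 0.76, stands beside Llgl1 at 0.71 and Drg2 at 0.57, with the dim Myo15 at -0.06.

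The genes whose values ran most like those of Alkbh5 over the 6 arrays were taken from the 7103 other genes with a mean of at least 6, ranked by Pearson's r. The first 5 were Paqr8, a membrane receptor gene on chromosome 1 (r = 0.98, Spearman's rho = 0.83), Natd1 in the segment (r = 0.98, rho = 0.77), Llgl1 in the segment (r = 0.97, rho = 0.77), Prmt8, a brain arginine methyltransferase gene on chromosome 6 (r = 0.97, rho = 0.77), and Wasf2, an actin regulator on chromosome 4 (r = 0.96, rho = 0.89). Of the 50 genes ranked first, 8 lie in the segment, which holds 19 of the 7103. The 6 arrays form separate clusters by genotype for Alkbh5 and share 1 normalization, so these values describe likeness in this set of arrays only. Paqr8 averaged 8.15 ± 0.01 in duplication mice and 7.90 ± 0.10 in wild-type mice (SD, n = 3 each), a log2 fold change of 0.25 (SE 0.08). Among the unlinked members r with Alkbh5 ranged from -0.84 for Fto to 0.65 for Ythdc1.

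Other genes of the m6A pathway were taken from a list of 23, of which 21 were measured, by 51 probe sets. At the brightest probe set of each gene, 5 were higher and 16 lower, beside 7588 higher and 10605 lower of all 18193 genes. The median log2 fold change was -0.05, beside -0.02 over all genes. Of the 51 probe sets 17 were higher and 34 lower, with a median of -0.03, beside -0.01 over all probe sets. None of the 21 passed limma with adjustment over all probe sets. At an unadjusted p under 0.05, 0 were higher, beside 1.15% of all genes, and 1 was lower, beside 2.01%. A share of 1 in 21 is not a result about the list.

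The gene with the unadjusted p under 0.05 was Hnrnpc, a nuclear RNA-binding protein whose access to RNA is altered by m6A. Its brightest probe set had log2 values of 10.05, 10.12 and 9.84 in duplication replicates 1, 2 and 3, against 10.19, 10.36 and 10.35 in wild-type mice. The groups did not overlap, and duplication replicate 3, the array with the lowest CA1 and dentate marker means, was the lowest. The log2 fold change was -0.30 (SE 0.10), with an unadjusted limma p of 0.0234 and an adjusted one of 0.994, and the second probe set, with -0.21, also had every duplication mouse below every wild-type mouse. Its remaining probe set, a dim one with a mean log2 value of 2.55, gave -0.003 (SE 0.10) with overlapping groups. Groups lay apart with the duplication mice lower at 3 of the 51 pathway probe sets, against 4.61% of all probe sets. These were the brightest and the second of Hnrnpc and a dim one of Igf2bp1. By gene this was 1 of 21, against 5.59% of all genes. Such counts are too small to be set apart from these backgrounds. The unadjusted limma p of the brightest Hnrnpc probe set was 0.0760 without duplication replicate 3, and it was 0.0710 or 0.0633 when wild-type replicate 2 or 3 was left out. The log2 fold change lay between -0.36 and -0.22 with any 1 mouse left out. The part of tissue composition in this value was not tested.

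At their brightest probe sets, the partners of the writer complex gave log2 fold changes of -0.06 for Virma, a scaffold, -0.15 for Rbm15b and 0.01 for Rbm15, RNA-binding recruiters, -0.12 for the zinc finger protein Zc3h13 and -0.20 for Cbll1, a ubiquitin ligase also called Hakai. Other probe sets went the opposite way for some of these genes, with 0.42 (SE 0.33) and 0.31 (SE 0.27) for Zc3h13, 0.08 for Cbll1, and 0.06 at 1 of the other probe sets of Rbm15b. The 95% intervals of all of these probe sets held 0. Trmt112, a cofactor of several methyltransferases, had log2 values of 9.62, 9.56 and 9.35 in duplication mice, against 9.52, 9.65 and 9.51 in wild-type mice, with overlapping groups and a log2 fold change of -0.05 (SE 0.10). Hnrnpa2b1, a nuclear RNA-binding protein, had 9.35, 9.52 and 9.41, against 9.34, 9.49 and 9.51, and -0.02 (SE 0.09) at its brightest probe set, and its other probe sets gave 0.12 to 0.19. Ythdc2, the remaining YTH gene measured, had a log2 fold change of 0.03 (SE 0.10). Fmr1, a neuronal RNA-binding protein lost in fragile X syndrome, had 0.17 (SE 0.14), the highest of the list when each gene is taken at its brightest probe set, with duplication replicate 3 at 8.14 and the other 5 mice at 7.60 to 7.73. The other probe sets of Fmr1 gave -0.08 and -0.01.

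The rest of the AlkB family, dioxygenases that act on DNA, RNA or protein, gave no gene past either threshold at the brightest probe set. Over all genes, 1.15% were higher and 2.01% lower at an unadjusted limma p under 0.05. Of 7 genes, 3 were higher and 4 lower, with a median log2 fold change of -0.06, beside -0.02 over all genes. Alkbh6 had log2 values of 7.79, 7.60 and 7.68 in duplication replicates 1, 2 and 3, against 7.65, 7.92 and 7.66 in wild-type mice, with overlapping groups and a difference of -0.06 (SE 0.10). Alkbh7, a mitochondrial member, had 6.15, 5.86 and 6.18, against 6.11, 6.41 and 6.38, with overlap at wild-type replicate 1 and a log2 fold change of -0.24 (SE 0.13). Alkbh8, which modifies transfer RNA, had 6.54, 6.16 and 6.50, against 6.29, 6.35 and 5.43, and its value of 0.38 (SE 0.25) had a 95% interval of -0.21 to 0.96, with wild-type replicate 3 far below the others. Alkbh3 gave -0.13 at its brightest probe set and 0.23 (SE 0.09, with an unadjusted limma p of 0.0436) at a dim one with a mean log2 value of 3.84, so its probe sets disagreed. This was 1 of the 12 family probe sets, beside 1.44% of all probe sets that were higher at that threshold, and is not a result about the family.

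**Figure D5:**
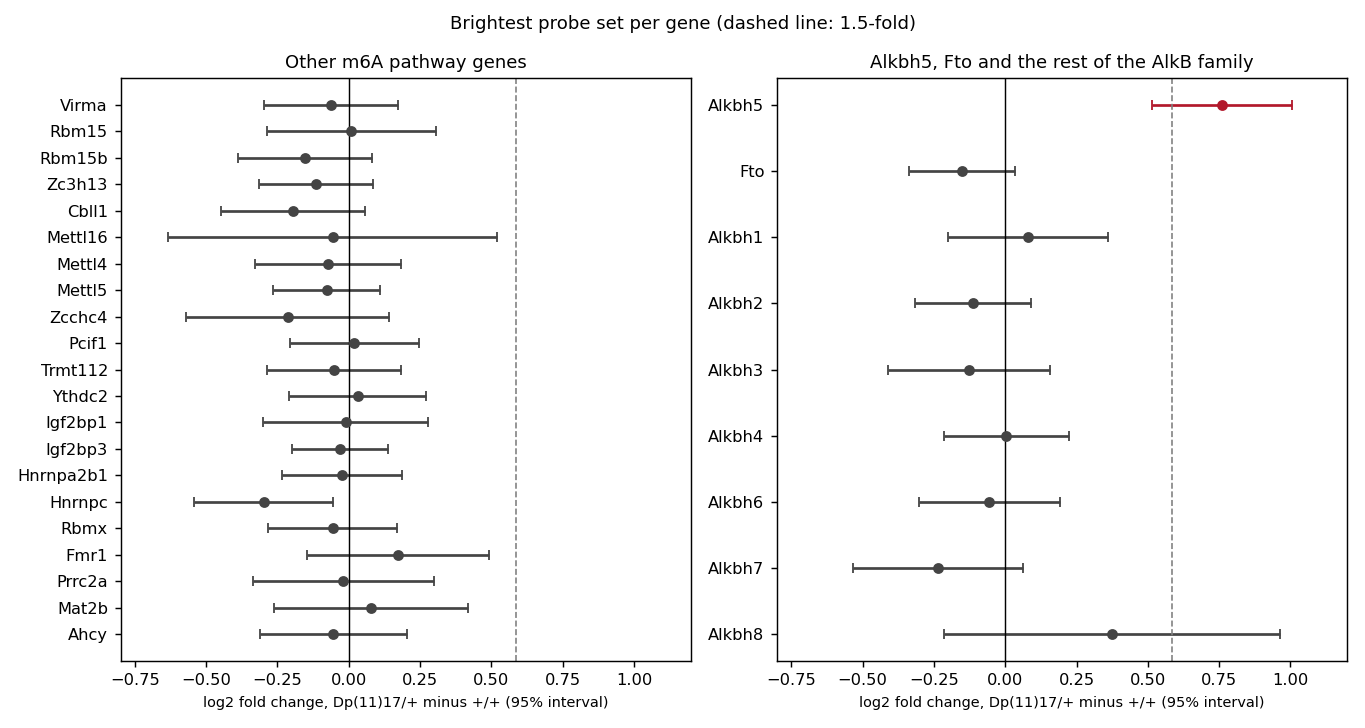
Log2 fold changes (Dp(11)17/+ minus +/+, horizontal axes) with 95% intervals from limma at the brightest probe set, for 21 other m6A pathway genes (left) and for Alkbh5, Fto and the 7 other AlkB family genes (right); dashed lines mark 1.5-fold, 0.58. Alkbh5 stands at 0.76, Hnrnpc at -0.30 is the 1 pathway gene on the left whose interval leaves out 0, and the interval of Alkbh8 is the widest on the right.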

How the data were processed

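The series holds 1 table of log2 values per probe set for 6 arrays. The deposited log2 values were made by the authors with RMA, per the submitters' processing notes; RMA corrects background, normalizes arrays together and summarises the probes of a probe set. The RMA version is not given in the sources used. Values lay between 2.14 and 13.09, with array medians of 3.74 to 3.79, and were used as deposited. Its 64 control probe sets were dropped. Gene names came from the platform annotation and were updated by Entrez identifier through a gene table of GRCm38.p6, which held 34741 of the 34945 probe sets with 1 symbol; 932 had several symbols and 9160 none. That table gave names, chromosomes and the order of genes.

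Groups follow the genotype in the labels, and replicates are numbered in the order of the records, so numbers pair no mice. Genotypes were compared with limma 3.58.1 in R 4.3.3 (lmFit and eBayes without trend, 7.11 degrees of freedom), two-sided, on all 45037 probe sets with Benjamini-Hochberg adjustment over all of them. The threshold was an adjusted p of 0.05, with an unadjusted p under 0.05 as a weaker rule read against its share among all probe sets. Exact permutation tests used scipy 1.17.1. The limma step was also run on simulated data with independent normal noise and known changes. The simulation held no differences of tissue composition or sex between arrays, and its outcome is not reported here. The test of Alkbh5 against the unlinked members was planned for 8 genes and run on the 7 measured.

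Named were every member probe set, the pathway and AlkB genes with an unadjusted p under 0.05 and the 3 brightest of each list, 3 measured neighbours on each side of Alkbh5 and the 5 genes most like it. The writer partners, Ythdc2, Fmr1, Zcchc4 and the dim probe set of Alkbh3 were named after their values were seen. The members and lists were chosen with earlier results of these data known. Alternatives were quantile normalization again, median centring, a trend with robust prior, array weights, a filter on dim probe sets, averaging probe sets and leaving out each mouse, and, added after the data were seen, duplication replicate 2 alone and the fits other than those leaving out mice for the pathway count.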

Additional observations from a re-analysis of the deposited data

How the results depend on the processing

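The log2 fold change of Alkbh5 kept its sign, an unadjusted limma p under 0.05 and an adjusted p above 0.05 in all 12 tested alternatives. It ranged from 0.70 to 0.86 with 1 mouse left out (adjusted p 0.276 or more) and was 0.74 when its probe sets were averaged. The count of member probe sets with an adjusted p under 0.05 stayed 0 in each alternative run, and that with an unadjusted p under 0.05 was 1 to 2 with 1 mouse left out, 1 without duplication replicate 1. The count of other m6A pathway genes with an unadjusted p under 0.05 was 0 to 2 with 1 mouse left out and 0 at an unadjusted p under 0.01. It was 0 without duplication replicate 3 or wild-type replicate 2. Without wild-type replicate 3 it was 2, these being Cbll1 and Zcchc4 and not Hnrnpc. The causes of these shifts were not tested. Alkbh5 minus Ythdf3 was 0.87 with duplication replicate 2 alone against wild type, and 0.70 with all mice, while the other 6 differences moved by less than the spread between mice. The sign of the near-zero log2 fold changes turned in 6 of 11 alternatives for Wtap, 5 of 10 for Mettl14, 2 of 11 for Ythdf1 and 1 of 11 for Ythdf3, and in 0 of 11 each for Fto, Mettl3 and Ythdc1. No paired analysis was possible because the labels give the mice no shared replicate numbers.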
